A study of Mus musculus with 12 samples.

Results

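The genes described here encode the proteins of the cytosolic ribosome. They were chosen by name, as every gene whose symbol is Rpl or Rps followed by a number, with or without a paralogue suffix, together with Rplp0, Rplp1, Rplp2 and Rpsa. 85 of the 24421 genes in the deposited table matched, 33 of them proteins of the 40S subunit and 52 of the 60S subunit. The 40S subunit binds and decodes the mRNA, and the 60S subunit joins amino acids and carries the P stalk that recruits translation factors. Cells need ribosomes in proportion to their growth, and thymocytes that have passed pre-TCR selection are known to proliferate and then to come to rest as CD4+CD8+ cells. Mouse Rpl22 is known to be needed for the αβ T lineage, which makes single ribosomal proteins of interest in this tissue. The mRNAs of this family begin with a run of C and T bases, the terminal oligopyrimidine (TOP) element, through which mTORC1 and LARP1 are known to control their translation. A table of mRNA levels does not measure that translation.

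All mice were C57BL/6 embryos that lack Rag1 and carry Bcl6 fl/fl, so the controls too make no T cell receptor of their own. KO animals were LckCre+, in which the Lck promoter drives Cre in the T lineage, and control animals were LckCre-. Loss of Bcl6 and presence of Cre cannot be told apart. CD25 cells came from unstimulated E16.5 thymi, while ISP cells (CD8+CD4-) and DP cells (CD8+CD4+) were sorted after E16.5 thymi had spent 2 days on filters with anti-CD3 at 1 µg/ml. Each of the 6 groups (CD25, ISP and DP, each in KO and control) held 2 libraries, 12 in all. Nothing in the labels says that the 2 libraries of each group are separate embryos or cultures, so p-values measure only the spread between these samples, which may be partly technical. Bcl6 itself, counted over the whole gene, was at 1.82 ± 0.269 RPKM in CD25 KO and 1.66 ± 0.234 RPKM in CD25 control, 22.0 ± 4.39 and 11.7 ± 0.187 RPKM in ISP KO and ISP control, and 99.5 ± 16.6 and 71.2 ± 1.80 RPKM in DP KO and DP control (SD, n = 2 each). A value per gene cannot show the loss of the exons flanked by loxP.

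Several facts about the libraries bear on everything below. Groups follow the sample titles. In 6 of the 8 libraries from stimulated thymi the title is contradicted, in population or genotype, by the name of the sequencing library, and in 5 of the 8 the developmental stage label names another population. Cd4, which marks DP cells, stood at 191 to 344 RPKM in DP libraries, by title, and at 13.9 to 20.5 RPKM in ISP libraries, and Il2ra, which encodes CD25, was 538 to 603 RPKM in CD25 libraries and at most 44.7 RPKM elsewhere. RPKM is reads per kilobase of gene, scaled to a number of reads set for the library. Ddx3y, a Y-linked gene, was between 0 and 0.0979 RPKM in the 4 ISP and DP KO libraries, and between 7.28 and 56.3 RPKM in the 4 ISP and DP control libraries. Sex and genotype therefore cannot be told apart in ISP and DP cells. Xist, the RNA of the inactive X chromosome, stood at 20.5 and 0.766 RPKM in ISP control and 22.5 and 0.914 RPKM in DP control, so the libraries of each of these groups differed in their make-up by sex. In CD25 cells all 4 libraries held Ddx3y, at 7.61 to 19.8 RPKM. Read depth, recovered from the RPKM values, ran from 9658121 reads (DP KO 2) to 14228548 reads (ISP control 1).

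Part of these genes carry the sequence for which the family is known at their annotated start. RefSeq start windows (build GRCm38.p6, 250 bases before to 50 after each annotated start) were at hand for 64 of the 85 genes. A C or T run of at least 6 bases that touches the annotated start was found in 21 of the 64 (32.8%), against 12.5% of all 27025 genes with a window. The letters CTCTTTC on the coding strand were found in 13 (20.3%, against 4.60% of all), and 5 genes had both this match and the run, which can overlap. CCGGAAG on either strand was found in 26 (40.6%, against 9.93%), and TCTCGCGA on either strand in 11 (17.2%, against 1.13%). A match is only a match of letters, and an annotated start may lie some bases from the start used in these cells. The 30 bases around the start, 10 before and 20 from it on, are shown for 6 genes with the run and for 3 without a run that touches the start. Runs that begin further on do not count, and the windows of Rpl22l1 and Rps2 each hold such a run. The first set shows the element known from this family, and the second set holds the gene with the smallest adjusted p between DP and ISP cells (Rps2) and 2 paralogues. Capitals mark the C or T run, also its bases before the annotated start. The windows are Rpl14 (chr9:120571507-120571536, plus strand), Rps18 (chr17:33955646-33955675, minus strand), Rpl35 (chr2:39005112-39005141, minus strand), Rps6 (chr4:86857348-86857377, minus strand), Rplp2 (chr7:141447641-141447670, plus strand) and Rpl38 (chr11:114668570-114668599, plus strand), then Rps2 (chr17:24720053-24720082, plus strand), Rpl22l1 (chr3:28805498-28805527, plus strand) and Rpl7l1 (chr17:46782637-46782666, minus strand).
Rpl14: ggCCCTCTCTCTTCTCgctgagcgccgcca
Rps18: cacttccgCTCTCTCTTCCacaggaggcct
Rpl35: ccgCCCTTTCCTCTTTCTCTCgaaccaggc
Rps6: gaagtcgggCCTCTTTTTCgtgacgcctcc
Rplp2: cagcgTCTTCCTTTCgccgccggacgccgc
Rpl38: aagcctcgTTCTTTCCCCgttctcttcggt
Rps2: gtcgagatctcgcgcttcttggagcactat
Rpl22l1: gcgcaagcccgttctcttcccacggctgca
Rpl7l1: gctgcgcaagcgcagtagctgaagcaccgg

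Most of the 85 genes were among the abundant mRNAs of every population. The median over genes was 371 to 441 RPKM in CD25 libraries, 413 to 468 RPKM in ISP libraries and 178 to 232 RPKM in DP libraries. Rps14 and Rpl32 had the highest means over 12 libraries, at 1956 and 1759 RPKM. Rpl10l, a testis paralogue of Rpl10, was listed at 0 in all libraries, and Rpl3l, a paralogue of Rpl3 known from striated muscle, did not exceed 0.920 RPKM. These 2 genes failed the filter on low values (at least 1 RPKM in at least 2 libraries), and 83 genes passed and were tested.

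Ribosomal protein genes are known to have many near-identical processed pseudogenes, so some listed levels may be uncertain. In annotated transcripts (GENCODE M21), a median of 51.8% of the 50-base windows of a member also occurred in transcripts of other genes. Rpl26, Rps27, Rpl30 and Rpl34 encode core proteins of the ribosome, yet averaged only 3.93, 4.97, 7.55 and 17.9 RPKM. They shared 71.3%, 63.1%, 47.8% and 25.8% of their windows with other genes, the shares of Rpl30 and Rpl34 being below the family median. Across 82 genes, Spearman's rho between shared windows and mean RPKM was -0.047. Why these 4 genes are listed so low was not tested. How the authors counted reads that match several genes is not given in the sources used here, so the levels of these 4 genes should be read as uncertain. The 41 genes above the median share and the 41 at or below it had like median differences between DP and ISP cells, -0.99 and -0.98 on the log2 scale. Between DP KO and DP control their medians were 0.27 and 0.21, and Spearman's rho between shared windows and that difference was 0.234. The part of shared sequence in these differences was not tested.

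Taken as 1 class, the 85 genes drew a smaller share of all reads in DP cells than in the other populations. In CD25 cells they held 2.77% and 2.91% of recovered reads in KO and 3.31% and 3.17% in control. In ISP cells these shares were 2.94% and 3.13% in KO and 3.02% and 3.22% in control. In DP cells they were 1.73% and 1.74% in KO and 1.48% and 1.49% in control. Every DP library lay below every CD25 and ISP library. Within DP cells both KO libraries lay above both controls, and within CD25 cells both KO libraries lay below both controls. In ISP cells the genotypes overlapped. The 95% Wilson interval of DP KO 1, 1.72% to 1.74%, covers counting error only. In bulk samples, a change in the kinds of cells and a change in RNA per cell cannot be told apart.

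**Figure D1:**
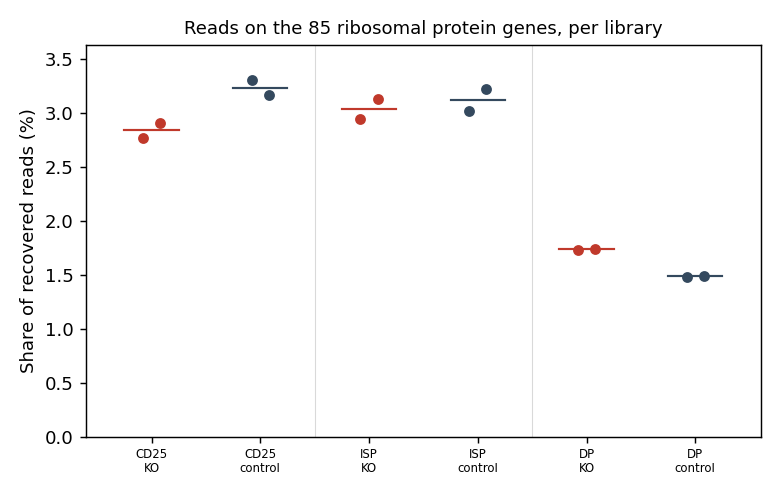
Share of recovered reads (y axis, in percent, from 0) on the 85 ribosomal protein genes in each of 12 libraries. Points are libraries, lines are group means of 2, KO is red and control dark blue. DP libraries lie between 1.48% and 1.74%, and all CD25 and ISP libraries between 2.77% and 3.31%.

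The study's sort of ISP and DP cells from stimulated thymi asks what changes as cells gain CD4. Nearly the whole ribosomal protein family was lower in DP cells. Of the 83 tested genes, 80 fell and 0 rose (limma on log2(RPKM + 1), Benjamini-Hochberg adjusted p under 0.05 over 11303 genes). Of all tested genes, 35.0% were called lower and 35.6% higher. At an unadjusted p under 0.05, 1 member was higher (36.8% of all tested genes), and limma voom on recovered reads called 0 higher. The median member differed by -0.98 on the log2 scale, against 0.01 for all genes tested. In 80 of the 83 genes every DP library lay below every ISP library, which held for 29.4% of all genes in this direction. The 40S genes had a median of -1.0 and the 60S genes of -0.97, so the medians of both subunits were alike.

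Beside this difference, other features of the libraries differed too. Malat1 and Neat1, 2 long nuclear RNAs, both rose in DP cells. With Meg3 they summed to 134 to 258 RPKM in DP libraries and 44.8 to 80.7 RPKM in ISP libraries. All 4 NK and innate cell markers fell, with a list sum of 13.4 to 16.2 RPKM in DP against 135 to 200.4 RPKM in ISP. The mast cell list summed to 0.853 to 3.17 RPKM in DP and 13.1 to 33.2 RPKM in ISP, with 2 of its 4 genes tested and both lower. The erythroid list was at most 0.619 RPKM in DP and 0.337 RPKM in ISP, none of its 7 genes passed the filter, and Hba-a1, Hba-a2, Hbb-bs and Hbb-bt were listed at 0. The myeloid list summed to 8.18 to 70.4 RPKM in DP and 4.82 to 47.6 RPKM in ISP, with 2 of 4 genes higher. The part of these cells and of RNA quality in the result was not tested.

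**Figure D2:**
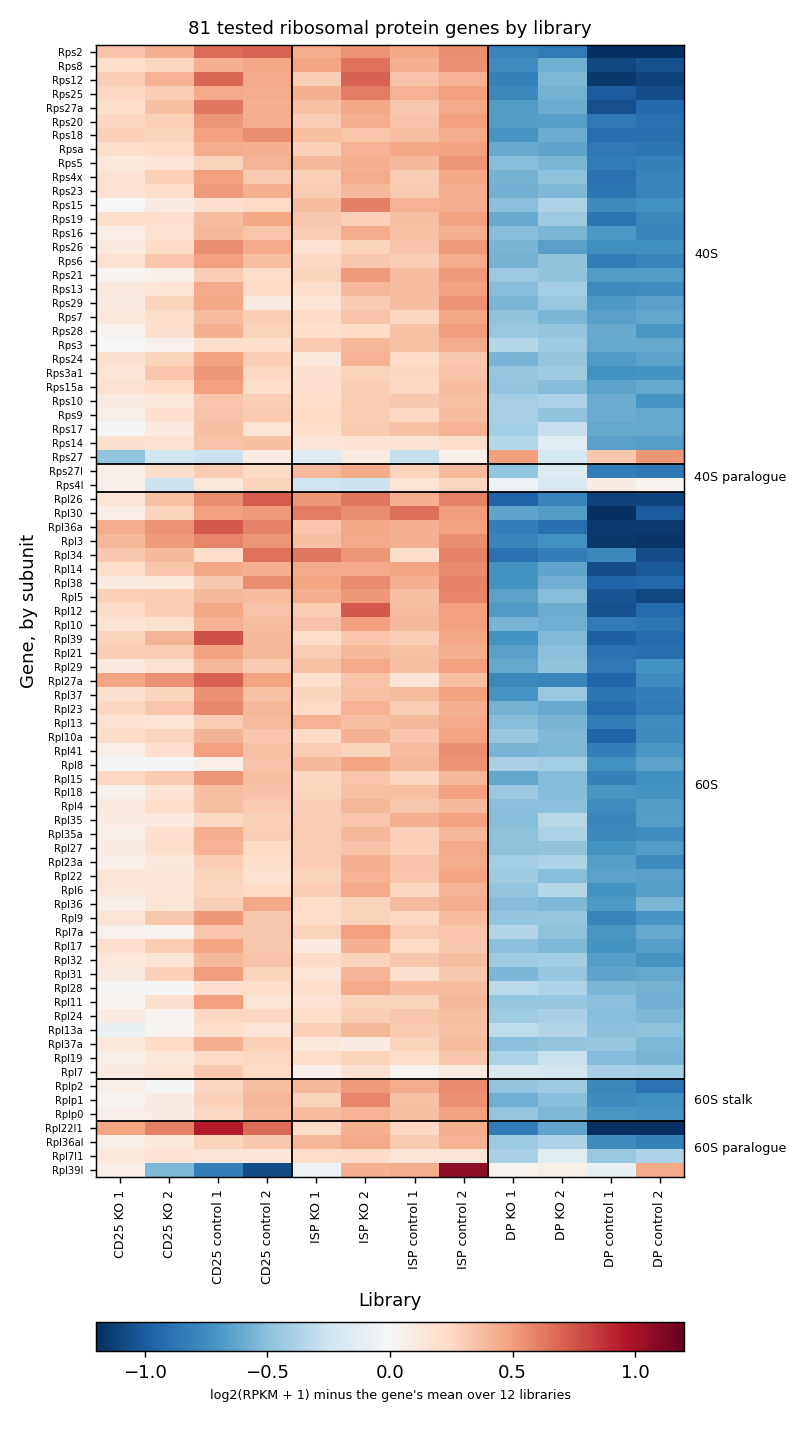
Each row is 1 of 81 tested genes, grouped by subunit and ordered within it by the log2 difference between DP and ISP. Columns are the 12 libraries, and colour is log2(RPKM + 1) minus the mean of the gene over 12 libraries. The 4 DP columns are blue for all but a few rows, among them Rps27, Rps4l and Rpl39l, and the DP KO columns are paler than the DP control columns.

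Among 40S genes, Rps2 had the smallest adjusted p. Rps2, which lies near the mRNA entry channel, had 239 and 232 RPKM in DP KO and 178 and 175 RPKM in DP control, against 573 and 608 RPKM in ISP KO and 579 and 617 RPKM in ISP control. All 4 DP libraries lay below all 4 ISP libraries, and Rps2 fell by 1.54 (SE 0.04, adjusted p = 6.51e-11). Rps6, the substrate of S6 kinase, fell by 1.00, with 106 to 136 RPKM in DP and 226 to 259.8 RPKM in ISP libraries. Rps19, mutated in Diamond-Blackfan anaemia in humans, fell by 1.03, and Rpsa, the 40S protein also known as the laminin receptor, by 1.15. Rps14, lost with part of a chromosome arm in a human myelodysplastic syndrome, was the most abundant member and fell less. It had 1506 and 1728 RPKM in DP KO and 1211 and 1202 RPKM in DP control, against 2116 and 2155 RPKM in ISP KO and 2143 and 2213 RPKM in ISP control. Its difference was -0.63 (SE 0.05, adjusted p = 1.73e-07), and the populations did not overlap.

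Among 60S genes that passed, Rpl26 had the lowest difference (-1.54) and Rpl7 the one nearest 0 (-0.40). Rpl26 had 1.27 and 1.55 RPKM in DP KO and 1.05 and 1.06 RPKM in DP control, against 4.96 to 5.86 RPKM in ISP libraries, and Rpl30 was also among the largest falls (-1.50). Both are listed at a few RPKM and share sequence with other genes, as said above. Rpl3, which lies at the peptidyl transferase centre, shows the same at a high level. It had 199 and 208 RPKM in DP KO and 154 and 153 RPKM in DP control, against 444 and 474 RPKM in ISP KO and 465 and 507 RPKM in ISP control (difference -1.41, adjusted p = 2.60e-10). Rpl5 and Rpl11, which carry 5S rRNA and bind MDM2 when ribosome assembly fails, fell by 1.29 and 0.78. Rpl38, known in mice for the translation of Hox mRNAs, fell by 1.32. Rpl13a, known for a role in translational silencing outside the ribosome, fell by 0.75. At the other end, Rpl7 had 499 to 583 RPKM in DP against 681 to 758 RPKM in ISP libraries (difference -0.40, adjusted p = 3.79e-06).

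The 3 proteins of the P stalk fell together. Rplp0, the stalk base, had 533 and 505 RPKM in DP KO and 452 and 449.8 RPKM in DP control, against 953 and 979.9 RPKM in ISP KO and 947 and 1024 RPKM in ISP control (difference -1.01, adjusted p = 1.67e-09). Rplp1 and Rplp2, the acidic proteins at its tip, fell by 1.09 and 1.12. The genes on chromosome X (Rps4x, Rpl10, Rpl36a and Rpl39) fell by 1.06, 1.15, 1.44 and 1.11. Rpl10 is mutated in some human T cell leukaemias.

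3 tested genes did not pass in this comparison. Rps27 had 7.20 and 4.02 RPKM in DP KO and 6.28 and 7.40 RPKM in DP control, against 3.82 to 5.27 RPKM in ISP libraries. The populations overlapped, and the difference was 0.35 (SE 0.15, adjusted p = 0.0613). Rps27 passed as higher when the mean log2 of other genes was set equal in every library. With single libraries left out, the difference of Rps27 ran from 0.17 to 0.52. Rps4l, an Rps4x-like gene, had 32.6 to 39.9 RPKM in DP and 31.1 to 45.0 RPKM in ISP libraries, a difference of -0.02 whose sign changed with the scaling. Rpl39l, a paralogue of Rpl39 known from male germ cells, had 3.54 to 5.59 RPKM in DP and 3.60 to 9.16 RPKM in ISP libraries (difference -0.35, adjusted p = 0.112). By limma on the 4 libraries whose title and library name give 1 population, Rpl39l passed as lower (-0.77, adjusted p = 0.0303). With single libraries left out, its difference ran from -0.51 to -0.19. All 3 are low for this family, and 2 of them are paralogues rather than the main gene of their protein.

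The grouping of stimulated libraries matters for this result. When the 8 libraries were grouped by library name in place of title, 0 members passed between DP and ISP cells, and the median difference was -0.07. In that grouping each side holds 2 libraries titled DP and 2 titled ISP. With only the 4 libraries whose title and library name give 1 population, 81 members fell and the median was -1.06.

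**Figure D3:**
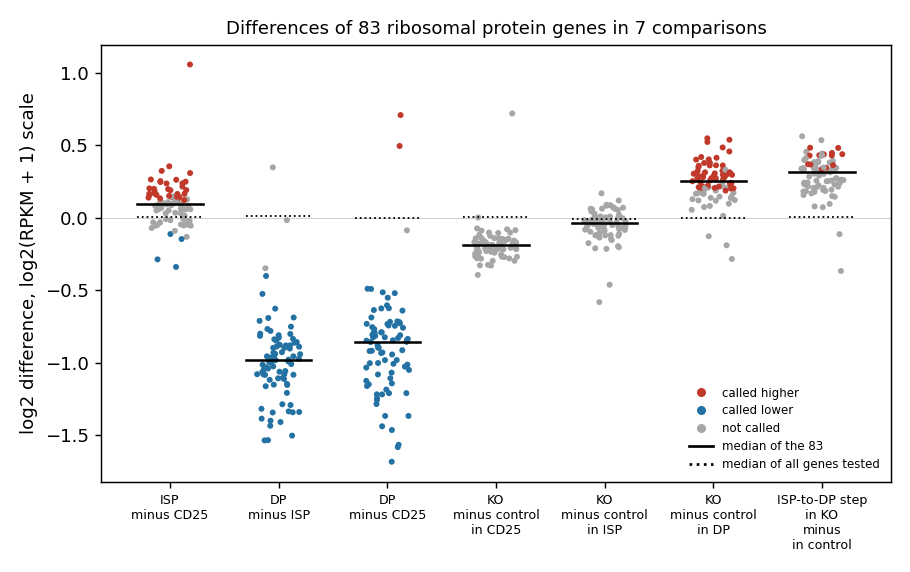
Log2 differences, on the log2(RPKM + 1) scale, of the 83 tested genes in 7 comparisons. Each point is a gene, red if called higher, blue if called lower and grey if not called by limma. Solid lines are medians of the 83 (-0.98 for DP minus ISP, 0.25 for KO minus control in DP) and dotted lines medians of all genes tested.

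ISP cells differ from CD25 cells in stage, in culture and in stimulation, which cannot be told apart here. 32 members were higher in ISP cells, which is 38.6% of the 83 beside 33.1% of all tested genes, and 4 were lower, 4.82% beside 30.9%. The median difference was 0.10, against 0.01 for all genes tested. Only 8 members were higher without overlap between the populations, where 28.8% of all genes were. Scaled to the plain total of recovered reads, the counts were 17 higher and 10 lower. Without ISP KO 2 the count of higher members was 20, and without CD25 control 1, ISP control 1 or ISP KO 1 the count of lower members was 2. All 3 stalk genes rose, Rplp2 by 0.31 (adjusted p = 1.61e-04), with 798 to 904 RPKM in ISP and 606 to 785 RPKM in CD25 libraries. Rpl8 rose by 0.35 and Rps15 by 0.32. Rpl39l showed the largest rise at 1.06 (SE 0.19, adjusted p = 3.29e-04), at 3.60 to 9.16 RPKM in ISP and 1.28 to 4.10 RPKM in CD25 libraries, which overlap. The 4 members that fell were Rpl22l1 (-0.34), Rpl27a (-0.29), Rpl36a (-0.15) and Rpl7 (-0.11). The long nuclear RNAs summed to 44.8 to 80.7 RPKM in ISP and 111 to 223 RPKM in CD25 libraries, with Malat1 lower in ISP. Of 7 T lineage markers, 3 rose and 3 fell. The part of RNA quality and of the kinds of cells in the result was not tested.

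DP cells set against CD25 cells share the DP libraries with the comparison above, so the values are given side by side and not as a second line of evidence. 80 members were lower and 2 higher in DP cells (38.4% and 37.3% of all tested genes), with a median of -0.86 against -0.01. On the log2(RPKM + 1) scale Rpl22l1, Rpl36a and Rps2 had the largest falls, with differences of -1.68, -1.58 and -1.57. This scale understates the change of low genes, and by the ratio of mean RPKM in DP to CD25 libraries Rpl26 was lower still, at 0.241 against 0.313 for Rpl22l1. Rpl22l1 had 105 and 121 RPKM in DP KO and 79.1 and 74.7 RPKM in DP control, against 262 and 287 RPKM in CD25 KO and 365 and 301 RPKM in CD25 control. The populations did not overlap (SE 0.08, adjusted p = 1.01e-09). Rpl39l (0.71, adjusted p = 0.00406) and Rps27 (0.50, adjusted p = 0.0112) were the 2 that rose, both at a few RPKM and both with overlapping libraries. Rps27 no longer passed with CD25 control 1 left out (0.41, adjusted p = 0.0502) or with DP KO 1 left out (0.32, adjusted p = 0.0507). Other cells' markers moved as well. The mast cell list summed to 0.853 to 3.17 RPKM in DP and 35.0 to 39.9 RPKM in CD25 libraries, with both tested genes lower, and the NK and innate list to 13.4 to 16.2 RPKM in DP and 203 to 253 RPKM in CD25, with Nkg7 lower. Epcam, the tested gene of the epithelial list, and all 4 Y-linked genes were lower in DP, while Neat1, Pecam1 and Itgam were higher. The part of these cells in the result was not tested.

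Deletion of Bcl6 was the study's main question, and in DP cells the KO libraries had higher levels of the family. Loss of Bcl6, presence of Cre and sex cannot be told apart in these libraries, as said above. 53 of the 83 tested genes rose in DP KO cells and 0 fell (14.1% of all tested genes were called higher and 7.78% lower). At an unadjusted p under 0.05, 64 were higher and 0 lower (20.5% and 14.9% of all), and voom called 46 higher and 0 lower. The median member differed by 0.25, against 0.00 for all genes, and in 76 members both DP KO libraries lay above both controls (32.0% of all genes). Without DP control 1 the count fell to 16, without DP control 2 or DP KO 2 to 20, and without DP KO 1 it was 40. Grouped by library name, 1 member was higher and 80 lower, but that grouping sets libraries titled DP against libraries titled ISP. The names contradict the titled genotype of 4 of the 8 stimulated libraries, and these values cannot show which genotype is right.

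Markers moved with this comparison as well. 3 of 4 myeloid markers rose, with a list sum of 47.4 to 70.4 RPKM in DP KO and 8.18 to 15.6 RPKM in DP control. 1 tested thymic epithelial marker of 5 rose and 1 tested endothelial marker of 3 fell. All 4 Y-linked genes of the list fell, as given above for Ddx3y. The long nuclear RNAs summed to 134 to 222 RPKM in DP KO and 234 to 258 RPKM in DP control, with Neat1 lower in KO. Cd4 was 249 and 191 RPKM in DP KO and 344 and 338 RPKM in DP control. The part of myeloid cells and of RNA quality in the result was not tested.

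Rps2 again had the smallest adjusted p among members, with 239 and 232 RPKM in DP KO and 178 and 175 RPKM in DP control, a rise of 0.41 (SE 0.06, adjusted p = 8.27e-04). On the log2(RPKM + 1) scale Rpl22l1 rose most, with 105 and 121 RPKM in DP KO and 79.1 and 74.7 RPKM in DP control, by 0.55 (adjusted p = 0.0048). Rpl30 (0.54, adjusted p = 0.0122) is listed at 4.00 and 3.86 RPKM in DP KO and 1.97 and 2.88 RPKM in DP control. Its ratio of mean RPKM, KO over control, was 1.62, above the 1.47 of Rpl22l1. Its call was lost with voom (0.68), with DP libraries alone (0.54), without DP control 1 (0.35) and without DP KO 2 (0.56), and that of Rpl22l1 was lost without DP KO 2 (0.44, adjusted p = 0.0579). Rps27l, a paralogue of Rps27 known as a p53 target, rose by 0.52 (adjusted p = 0.00247), with 415 and 516 RPKM in DP KO and 325 and 319 RPKM in DP control. In each of these genes both KO libraries were above both controls.

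Genes with known further roles, and the stalk, are given next. Rpl5 rose by 0.48 (adjusted p = 0.00153), with 55.0 and 60.5 RPKM in DP KO and 41.8 and 40.1 RPKM in DP control. Its partner Rpl11 did not pass, with 186 and 187 RPKM in DP KO and 182 and 173 RPKM in DP control (0.07, adjusted p = 0.631). Rps14 rose by 0.42 (adjusted p = 0.00184), with 1506 and 1728 RPKM in DP KO and 1211 and 1202 RPKM in DP control. Rps19, Rps6, Rpsa and Rpl38 rose by 0.31, 0.30, 0.24 and 0.31. Of the stalk, Rplp2 rose by 0.38 and Rplp0 by 0.20, and Rplp1 did not pass (0.20, adjusted p = 0.151). Negative differences were those of Rps27 (-0.29), Rps4l (-0.19) and Rpl39l (-0.13), and none of these passed, while Rpl37a stood at 0.01.

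**Figure D4:**
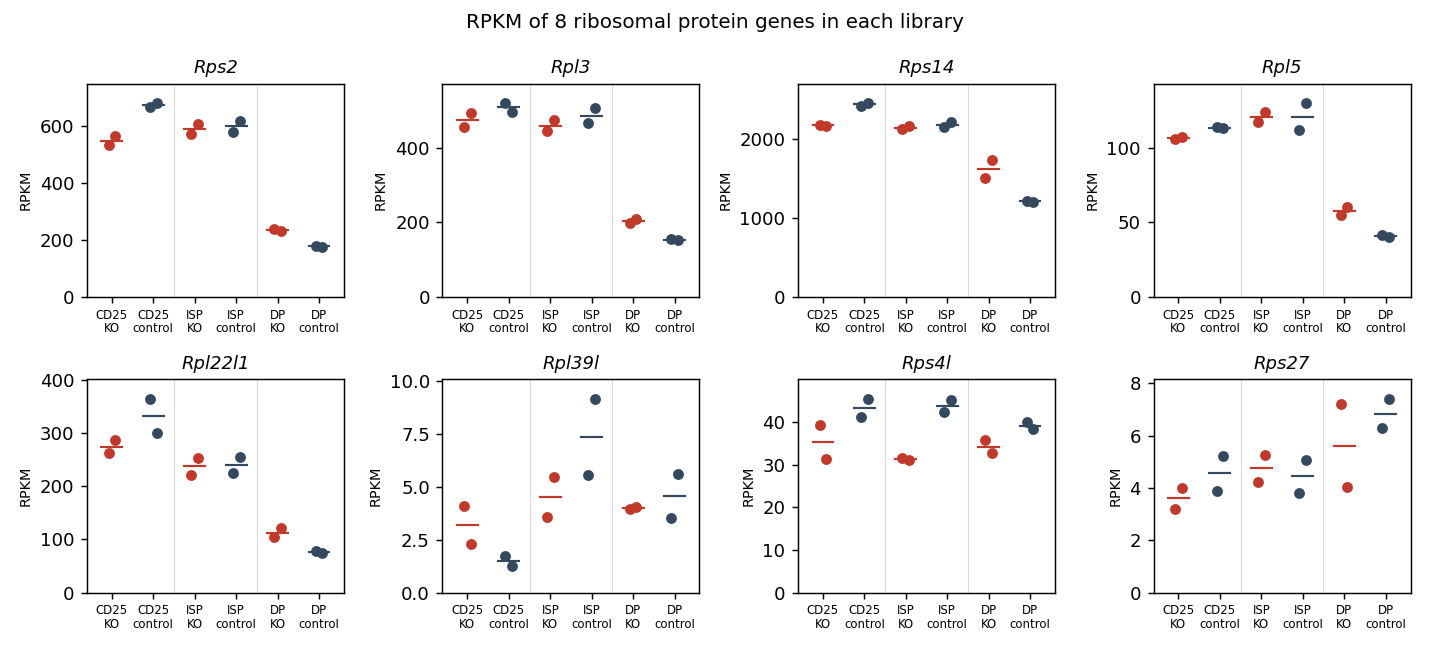
RPKM (y axis, from 0) of 8 ribosomal protein genes in each of 12 libraries. Points are libraries, lines are means of 2, KO is red and control dark blue. Rps2, Rpl3, Rps14, Rpl5 and Rpl22l1 are low in DP cells with KO above control, while Rpl39l, Rps4l and Rps27 follow other patterns.

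The step between ISP and DP cells was then compared between genotypes, which asks whether the family fell less in KO cells. From group means, the median member differed between DP and ISP cells by -0.82 on the log2 scale in KO and by -1.14 in control. By the interaction term, 14 members had a higher value in KO, that is a smaller fall, and 0 a lower one (3.67% and 0.522% of all tested genes), with a median of 0.31 against 0.01. At an unadjusted p under 0.05, 63 were higher and 0 lower (14.2% and 7.41% of all). This comparison shares its DP libraries with the one between genotypes in DP cells and rests on small groups. Genotype cannot be told apart from sex in it either. The count was 0 without DP control 1, DP control 2, ISP control 2 or ISP KO 1, 1 without DP KO 2 or ISP KO 2, 6 without ISP control 1 and 23 without DP KO 1. It was 27 with a filter of at least 5 RPKM and 2 with no filter. Among the 14 were Rpl5, Rpl3, Rps14, Rpl35, Rplp2, Rps2, Rpl14, Rps19, Rpl32, Rpsa, Rpl21, Rps10 and Rpl36al, at 0.32 to 0.48. Rpl3 fell to 199 and 208 RPKM in DP KO against 444 and 474 RPKM in ISP KO, and to 154 and 153 RPKM in DP control against 465 and 507 RPKM in ISP control (interaction 0.48, adjusted p = 0.0158). Rpl22l1 and Rpl30 had the largest values, 0.56 and 0.54, and did not pass (adjusted p = 0.0621 and 0.113).

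In CD25 cells the order of the genotypes was the other way round, but no member passed. 0 of 83 were called either way by limma (0.0094% of all tested genes in each direction), and voom called 0. At an unadjusted p under 0.05, 55 members were lower in KO and 1 higher (4.35% and 4.79% of all). This count of lower members depended on the setting. With all CD25 libraries kept, it ran from 34 (replicate block) and 35 (no filter on low values) to 62 (voom). In 72 members both CD25 KO libraries lay below both controls (18.4% of all genes), and 81 of 83 differences were negative (47.7% of all), with a median of -0.19 against 0.01. The fit used 4 libraries and had 2 residual degrees of freedom. Rps2 had 532 and 563 RPKM in CD25 KO and 666 and 679.9 RPKM in CD25 control (-0.30, SE 0.06, adjusted p = 0.229). Rps26 had 510.2 and 549 RPKM in CD25 KO and 690.5 and 642 RPKM in CD25 control (-0.33, adjusted p = 0.229), and Rpl26 and Rpl38 differed by -0.40 and -0.33. The groups did not overlap in these 4 genes. The myeloid list summed to 29.1 to 33.1 RPKM in CD25 KO and 14.0 to 20.5 RPKM in CD25 control, higher in KO as in DP cells, though none of its tested genes was called here, and its part in the result was not tested. Rpl39l went the other way, at 4.10 and 2.31 RPKM in CD25 KO and 1.73 and 1.28 RPKM in CD25 control (0.72, adjusted p = 0.415), and Rpl7l1 stood at 0.00. Across the 83 genes, Spearman's rho between gene length and this difference was 0.449, with shorter genes further below 0, and genes that share libraries are not replicates.

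In ISP cells no difference between the genotypes was detectable for the family. 0 members passed in either direction (0.0973% of all tested genes were called lower and 0.257% higher). At an unadjusted p under 0.05, 9 were lower and 0 higher (6.44% and 6.78% of all), and voom called 1, Rps4l, as lower. The median was -0.04 against -0.01, and its sign changed without ISP control 2 or ISP KO 1. Rps4l had 31.6 and 31.1 RPKM in ISP KO and 42.2 and 45.0 RPKM in ISP control (-0.46, SE 0.10, adjusted p = 0.0727), with both KO libraries below both controls. It passed with voom, with ISP libraries alone and with the filter of 5 RPKM. The myeloid list summed to 27.6 to 47.6 RPKM in ISP KO and 4.82 to 7.46 RPKM in ISP control, with 1 gene called higher, Lyz2. Rpl39l had 3.60 and 5.45 RPKM in ISP KO and 5.55 and 9.16 RPKM in ISP control (-0.58, adjusted p = 0.371). For the step between CD25 and ISP cells, 0 members passed by limma between genotypes (0.0% of all tested genes in each direction, and 16 members higher and 1 lower at an unadjusted p under 0.05, against 4.49% and 5.29% of all). The largest value was that of Rpl39l, -1.30 (adjusted p = 0.312).

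Several ribosomal proteins have a paralogue that can take their place, and the balance within pairs varied by population. Mouse Rpl22 is known to repress the mRNA of its paralogue Rpl22l1. The ratio of Rpl22l1 to Rpl22 was 4.01 to 5.13 for CD25 libraries, 3.03 to 3.22 for ISP libraries and 2.01 to 2.97 for DP libraries, ranges that do not overlap. Both genes fell between ISP and DP cells, Rpl22 by 0.93 and Rpl22l1 by 1.34. In DP cells the ratio was 2.42 and 2.97 in KO and 2.12 and 2.01 in control. Ratios are given as descriptions, with no test.

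The other pairs differed from one another. The ratio of Rps4l to Rps4x was 0.0621 to 0.0890 for CD25, 0.0556 to 0.0832 for ISP and 0.112 to 0.181 for DP libraries, and it was lower in KO than in control without overlap in ISP and in DP cells. Rpl36al, an autosomal copy of the X-linked Rpl36a, exceeded it by a ratio of 1.19 to 1.36 for CD25, 1.51 to 1.73 for ISP and 2.09 to 2.39 for DP libraries. Rpl36a fell by 1.44 and Rpl36al by 0.99 between ISP and DP cells, and they shared 85.5% and 63.3% of their 50-base windows with other genes. Rps27l exceeded Rps27 by a ratio of 130.1 to 192 for CD25, 149.8 to 182 for ISP and 43.1 to 128 for DP libraries, but the level of Rps27 is uncertain. Rpl7l1, a Rpl7-like gene, stood at 0.0878 to 0.101 of Rpl7 for CD25, 0.101 to 0.110 for ISP and 0.0862 to 0.104 for DP libraries, ranges that overlap. These 2 genes had the 2 smallest falls between ISP and DP cells among members that passed. Rpl39l stood at 0.00288 to 0.0100 of Rpl39 for CD25, 0.00908 to 0.0196 for ISP and 0.0172 to 0.0313 for DP libraries.

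**Figure D5:**
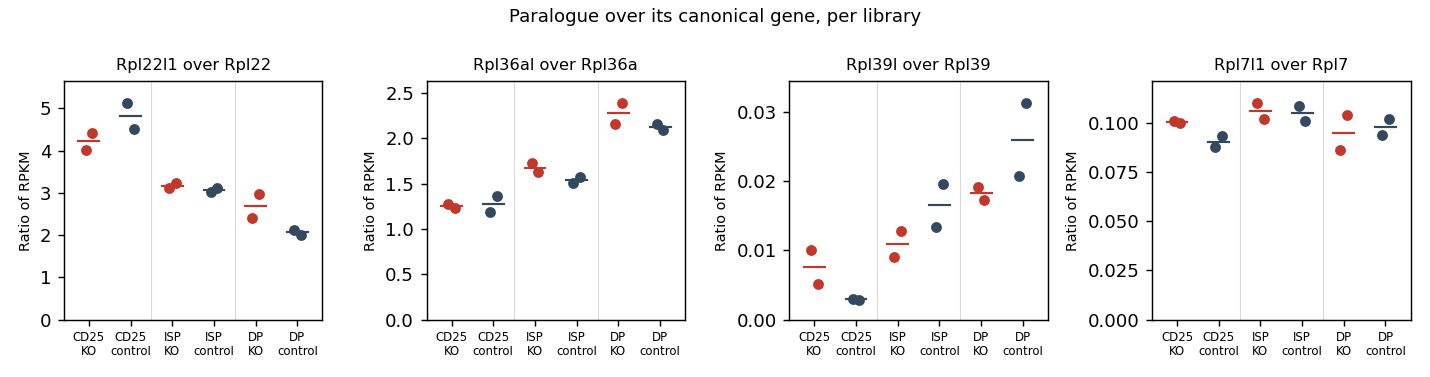
Ratio of RPKM of a paralogue to its main gene (y axis, from 0) in each of 12 libraries, for 4 pairs. Points are libraries, lines are means of 2, KO is red and control dark blue. The ratio of Rpl22l1 to Rpl22 declines over CD25, ISP and DP libraries, while that of Rpl36al to Rpl36a is highest in DP.

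Genes that work with the ribosome were followed from lists. The counts stand beside 35.0% of all tested genes called lower and 35.6% higher in DP against ISP cells, with a median of 0.01. Gnb2l1 (RACK1 of the 40S subunit) and Fau encode ribosomal proteins under other names, and both fell in DP against ISP cells (-1.04 and -0.55). All 16 elongation factors and further TOP mRNAs fell (median -0.76), with Npm1, which chaperones ribosome assembly, at -1.82 and Eef1g at -1.52. All 17 tested chaperones and export factors of ribosomal subunits fell (median -0.94), with Grwd1, the chaperone of Rpl3, at -1.71 and Rrs1 at -1.59. Of 21 initiation factors 19 fell and 2 rose, Eif4a2 and Eif4g2. Of 14 genes for RNA polymerase I and rRNA transcription 11 fell and 2 rose, with Polr1b at -2.11. The 77 tested genes of the mitochondrial ribosome had a median of -0.51.

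In the lists of regulators and of responses to faults, genes were called in both directions, at counts near those shares. Of 14 genes around mTORC1, S6 kinase and LARP1, 6 rose and 4 fell in DP against ISP cells. Larp1, which binds TOP mRNAs, fell by 1.06, and Eif4ebp1, a translation repressor, by 1.91. Ddit4, an inhibitor of mTORC1, rose by 0.92. Of 9 tested genes of the 5S RNP and p53 list, 4 rose and 3 fell, Mdm2 and Mdm4 being higher (0.52 and 1.01) and Trp53 lower (-1.01). Of 8 tested genes for ribosome stalling and rescue, 3 rose and 3 fell, with Abce1, which recycles ribosomes, at -0.93.

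In DP KO against DP control cells, many genes of the translation and assembly lists rose and none of them fell, where 14.1% of all tested genes were called higher and 7.78% lower. Of the elongation and TOP list 13 of 16 rose and 0 fell (median 0.30). Of the initiation factors 10 of 21 rose and 0 fell, and of the chaperones 8 of 17 rose and 0 fell, with Grwd1 at 0.67 (adjusted p = 3.10e-04). Gnb2l1 and Fau rose by 0.34 and 0.17. Of the mTORC1 list 2 rose and 4 fell, and of the polymerase I list 3 rose. The mitochondrial ribosome had a median of 0.27 with 43 of 77 genes higher, beside the median of 0.25 for the cytosolic genes. The difference between the 2 classes was not tested.

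10 genes outside the family followed its mean most closely over the 12 libraries, out of 8038 genes with a mean of at least 5 RPKM. By Pearson's r on log2(RPKM + 1) they were Eef1a1 (0.997), Eef1b2, Nme2, Npm1, Eif3i, Hsp90aa1, Cdk4, Hspa4, Ncl and Mif (0.990). The 12 points fall into populations, so r here mostly describes the difference between DP and the other cells, and it is given with no p. Eef1a1, the elongation factor that brings tRNA to the ribosome, averaged 1719 RPKM in CD25, 1754 RPKM in ISP and 871 RPKM in DP libraries. Npm1 averaged 650.0, 659 and 188 RPKM, and Cdk4, a cell cycle kinase, 522, 574 and 226 RPKM.

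Within the family, the differences are also given by the annotated start and by level, as descriptions. The 21 genes with a C or T run of at least 6 bases at the annotated start had a median of -0.94 between DP and ISP cells. The 41 other tested genes with a window had -1.01 (ranges -1.39 to 0.35 and -1.54 to -0.53). A run some bases from the annotated start counts as absent here, so this split cannot show whether the start sequence matters. Between DP KO and control the medians were 0.21 and 0.27. Across the 83 genes Spearman's rho between mean RPKM and the difference between DP and ISP cells was 0.0467, and between gene length and that difference 0.101, as descriptions over genes that share libraries.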

How the data were processed

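The deposited table gives 1 RPKM value per gene and library, calculated by the authors. Per the submitters' processing notes, reads were aligned with BWA to GRCm38. Counter, annotation and the handling of reads that match several genes were not given in the sources used here. RPKM values were taken as whole multiples of what 1 read is worth. Of 169595 values above 0, 168468 (99.34%) came out as whole reads within 0.02 reads. For genes seen in several libraries, length was chosen as the smallest whole number of bases that made all values whole. Whole reads there follow from that choice, so this share does not test the recovery. Shares of reads use the recovered reads.

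Differences were tested on log2(RPKM + 1) with limma 3.58.1 (R 4.3.3, trend in the prior variance). Genes needed 1 RPKM or more in 2 or more libraries. Because of the added 1, changes of low genes are understated. The comparison of genotypes in CD25 cells was fitted on its 4 libraries alone (10636 genes, with 2 residual degrees of freedom) and all others on the 12 libraries in 6 groups (11303 genes, with 6 residual degrees of freedom). Genes were called at a Benjamini-Hochberg adjusted p under 0.05 over all tested genes. Alternatives were another pseudocount, other filters and scalings, limma voom on recovered reads (with library sizes by TMM), fewer or more libraries, a replicate block, groups by library name and each library left out.

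Members and gene lists were chosen with earlier results of these data known. Genes given with full values follow a rule that takes the 3 largest rises and falls per comparison, paralogue pairs, the stalk, members with known further roles, the extremes of level and X-linked members, of which the text names a part. Some single genes are not reported here, though counts and medians include them. Positions and shared windows are from GENCODE M21, and start windows from RefSeq (GRCm38.p6). Most labels give E16.5, the treatment protocol E17.5. Plots used Python 3.11.15 and matplotlib 3.10.9.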

Additional observations from a re-analysis of the deposited data

Results flagged for a closer look

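For 14 ribosomal protein genes the step between ISP and DP cells differed between the genotypes by the interaction term of limma, the fall being smaller in KO. On the log2 scale, the step in KO minus that in control was 0.483 for Rpl5, 0.482 for Rpl3, 0.447 for Rps14, 0.439 for Rpl35, 0.437 for Rplp2, 0.431 for Rps2 and 0.430 for Rpl14. It was 0.429 for Rps19, 0.370 for Rpl32, 0.367 for Rpsa, 0.363 for Rpl21, 0.344 for Rps10 and 0.322 for Rpl36al. The adjusted p-values of the genes named ran from 0.0158 to 0.049 and the count of calls depended on single libraries, as given above.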

How the results depend on the processing

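The median fall of the family in DP against CD25 cells kept its direction under every setting tried. The fall in DP against ISP cells was all but lost when grouped by library name, with a median of -0.067 and 0 members called, and kept its direction elsewhere. That grouping puts libraries titled DP and libraries titled ISP on both sides, and their Cd4 levels are given above. The median rise in DP KO against DP control cells kept its direction under all but the grouping by library name. Depth limits the lowest members. Rpl26 rested on 6 to 43 reads a library, whereas Rps2 had 1874 or more.

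Grouped by library name, members called higher and lower were 1 and 70 between ISP and CD25, 0 members were lower between DP and ISP, and 1 was higher between DP and CD25. Between genotypes 80 were lower in ISP and 80 lower and 1 higher in DP, while 0 were higher for the step between ISP and DP and 78 lower for that between CD25 and ISP. In the order of these comparisons the medians were -0.37, -0.067, -0.42, -1.02, -0.95, 0.085 and -0.83. Reversed values under this grouping were -0.11 (Rpl8), -0.15 (Rps15) and -0.23 (Rplp2) between ISP and CD25, and -0.022 (Rps27) and 0.028 (Rps4l) between DP and ISP. Between genotypes in DP they were -1.28 (Rpl22l1), -1.64 (Rpl30), -0.98 (Rps27l), -1.47 (Rps2), -1.24 (Rpl5), -0.66 (Rps14), -0.96 (Rpl36al) and 0.62 (Rps27), and for the step between ISP and DP -0.28 (Rpl30) and -0.057 (Rps14).

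Scaled to the plain total, ISP against CD25 had 17 members higher and 10 lower with a median of 0.031, and the median between DP and CD25 was -0.90. With the mean log2 of other genes set equal, 1 member was higher between DP and ISP and the median between DP and CD25 was -0.81. The 4 libraries with 1 population in both names gave a median of -1.06 between DP and ISP. The value of Rps4l between DP and ISP reversed to 0.0036 (plain total), 0.012 (other genes set equal), 0.011 (the 4 libraries) and 0.0078 (voom). In ISP, 1 member was lower between genotypes with the filter of 5 RPKM, with ISP libraries alone and with voom. With no filter, 31 members rose in DP KO and 2 had a smaller step, and with the filter of 5 RPKM 27 did. Without paralogues named l, l1 or al the members' mean share of reads in DP was 1.68% in KO and 1.44% in control.

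With single libraries left out, members higher and lower ran from 20 to 34 and 2 to 5 between ISP and CD25, 0 to 1 higher between DP and ISP, and 1 to 2 higher between DP and CD25. Between genotypes they ran from 0 to 1 higher in CD25 and from 16 to 40 higher and 0 to 1 lower in DP, and from 0 to 23 higher for the step between ISP and DP. Medians ran from -0.90 to -0.83 (DP against CD25), -0.23 to -0.16 (KO in CD25), -0.10 to 0.021 (KO in ISP), 0.25 to 0.37 (ISP to DP step) and 0.087 to 0.20 (CD25 to ISP step). The value of Rps4l between DP and ISP ran from -0.048 to 0.015, and that of Rps27 between genotypes in DP from -0.64 to 0.068. The causes were not tested.

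The replicate numbers were not taken as a pairing. Deviations of same-numbered libraries correlated at -0.066 to 0.125 over the pairs of groups, but a correlation over all tested genes cannot show that such libraries are unrelated. The highest value was between ISP control and DP control, where Xist was also low in library 2 of both. Ddx3y was 7.28 and 29.7 RPKM in ISP control 1 and 2, and 15.7 and 56.3 RPKM in DP control 1 and 2. These libraries may therefore be paired by number, which was not modelled. With a replicate block the counts were 53 higher in DP KO and 18 higher for the step between ISP and DP, against 53 and 14 without it. That block is a single term shared by all groups, not a pairing of ISP with DP libraries within a genotype.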
